A study of Mus musculus with 8 samples.

Results

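The expression of 10 mRNA cleavage and polyadenylation factors was followed in C2C12 cells, a mouse myoblast line, after silencing of the long non-coding RNA Pvt1. The genes were Cpsf1, Cpsf2, Cpsf3, Fip1l1, Cstf1, Cstf2, Nudt21, Cpsf6, Pcf11 and Pabpn1, taken by name, with every probe of the array that carried that name. They were 10 of 37074 gene names on the array, with 24 probes, of which 23 had enough measured values to be tested. Proliferating cells at passage 10 were transfected with Lipofectamine 2000 and antisense LNA GapmeRs, oligonucleotides that direct the cleavage of the RNA they pair with. In 4 cultures the GapmeRs were directed against Pvt1 (Pvt1 silenced) and in the other 4 they were negative control GapmeRs, so both groups had received reagent and oligonucleotides and none was untreated. The transfection medium was removed after 48 h. The labels name 2 GapmeRs against Pvt1 and do not say which culture received which, so an effect of one oligonucleotide cannot be told apart from that of the other, and all cultures came from 1 immortal line. The labels number the cultures of each group as biological replicates 1 to 4.

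The 3′ end of almost every messenger RNA is made by cutting the nascent transcript and adding a poly(A) tail. The cleavage and polyadenylation specificity factor (CPSF) recognises the AAUAAA signal and cuts the RNA, the cleavage stimulation factor (CstF) binds the GU-rich stretch behind the cut, and cleavage factors I and II help to choose the site and to end transcription. Many genes carry several such sites, and the site that is used sets the length of the 3′ untranslated region. In muscle this machinery is best known through PABPN1, the nuclear poly(A) binding protein, in which an expanded alanine stretch causes oculopharyngeal muscular dystrophy.

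Of the 8 probes that fell, 6 are shown by their sequence, because each one defines the stretch of messenger RNA whose level was measured. The last Cstf1 probe, which lies beyond a polyadenylation signal and may be untranslated, and the first Pcf11 probe, which was near background, are not shown. Each probe holds 60 bases, is written 5′ to 3′ in the sense of the messenger RNA, and is placed on build mm9 as the files give it. A reading frame without a stop codon was a condition for showing a probe, so that all 6 have at least 1 says nothing about coding. The Cpsf1 probe, the last Pcf11 probe and the first Cpsf3 probe extend over more than 60 bases of genome, as probes across an exon junction do.
Cpsf1, minus strand, chr15:76426957-76427095: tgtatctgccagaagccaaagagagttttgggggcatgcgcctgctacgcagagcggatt
Cpsf2, plus strand, chr12:103241349-103241408: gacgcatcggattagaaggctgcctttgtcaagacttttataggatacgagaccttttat
Cpsf3 first probe, plus strand, chr12:21308325-21311181: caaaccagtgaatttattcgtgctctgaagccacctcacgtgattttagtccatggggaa
Cpsf3 second probe, plus strand, chr12:21316073-21316132: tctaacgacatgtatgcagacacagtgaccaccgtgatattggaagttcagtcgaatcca
Cpsf6 first probe, minus strand, chr10:116796059-116796118: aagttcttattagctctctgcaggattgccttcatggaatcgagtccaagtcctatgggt
Pcf11 last probe, minus strand, chr7:99795586-99796503: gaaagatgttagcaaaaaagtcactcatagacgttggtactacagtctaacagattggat
A further stretch is shown from the middle of 3 Cstf1 probes, because it holds a polyadenylation signal, given in capitals as the DNA letters AATAAA.
Cstf1 middle probe, plus strand, chr2:172206556-172206583: cctggtAATAAAgctcagatctacaacc

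Silencing was examined first. The brightest Pvt1 probe (chromosome 15, 62081020 to 62081079) had a log2 signal of 9.65, 9.79, 10.31 and 9.70 in control replicates 1 to 4 and of 7.09, 6.69, 7.85 and 6.39 in silenced replicates 1 to 4. No silenced culture reached a control culture, and the difference of -2.86 (SE 0.32, limma adjusted p 0.000682) left 13.8% of the control signal.

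The arrays were alike in brightness with 1 exception. The share of spots well above background was 42.9% to 45.4% in controls, 42.6% to 43.2% in silenced replicates 1 to 3 and 36.8% in silenced replicate 4, the dimmest array. Of 6 myoblast markers, 5 were well above background on all arrays and 1, Myf5, on none. Their summed signal, as log2 with no dim spot masked, was 17.33 to 17.48 in controls and 16.86 to 17.17 in silenced cultures, and Myod1 (12.72 to 13.69 against 11.17 to 11.77), Des (14.01 to 14.19 against 12.23 to 13.28) and Cdh15 (at least 14.63 against 13.72 to 14.38) were lower in silenced cultures without overlap, while Vim (15.68 to 16.26 against 15.65 to 15.91) and Itga7 (15.53 to 16.04 against 15.44 to 15.69) overlapped. Of 20 hepatocyte genes, which these cells should lack, 16 were not well above background in any control and 8 in any silenced culture, each by its brightest probe. Another probe of Apoc3, which is among the 8, was well above background on 3 silenced arrays. On values with no dim spot masked, the log2 of the summed signal of the 20 was 10.34 to 11.03 in controls and 12.42 to 12.79 in silenced cultures. Albumin, for example, was at 3.81 to 4.11 in controls and 9.22 to 10.13 in silenced cultures. Not every gene of the list rose. The brightest Apoa2 probe overlapped (9.52 to 10.61 against 9.79 to 10.67), Apoa1, Fga and Apob were well above background in no culture, and Hpx only in 2 controls. The summed signal of both marker lists moved with the group, and the part of these genes in the results below was not tested.

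Among the 10 factors more probes fell than rose in silenced cells (see the plot of changes by probe). Of the 23 probes tested, 8 fell and 1 rose at a Benjamini-Hochberg adjusted p of 0.05 in limma, where 18.4% of all 28649 probes tested fell and 4.79% rose. The probes that fell belonged to Cpsf1, Cpsf2, Cpsf3, Cpsf6, Pcf11 and Cstf1, and the probe that rose also belonged to Cstf1. No probe of Cstf2, Nudt21, Fip1l1 or Pabpn1 passed the test. The median change of the 23 probes was -0.60 on the log2 scale, against -0.19 for all probes tested, and 17 of the 23 changes were below 0, as were 61.5% over all probes. Without silenced culture 4, the dimmest array, the members' median was -0.26 and that of all probes -0.03. The groups did not overlap in 8 member probes that were lower and 1 that was higher, while 22.6% of all probes were lower and 5.61% higher without overlap. Relative to the median of all probes, 7 of these falls ranged from -1.40 to -0.48, leaving out the first Pcf11 probe, which was near background on every array. Under another scaling, a shift of each array to its 75th percentile, the median of all probes moved from -0.19 to 0.16, that of the members from -0.60 to -0.24, the split of all probes from 18.4% lower and 4.79% higher to 15.2% lower and 24.7% higher, and the split of the members from 8 and 1 to 6 and 3, with 13 of the 23 changes below 0 against 41.2% over all probes. Under cyclic loess the medians were 0.02 for all probes and -0.29 for the members. With the row of the slide that held each array as a block, 4 members' probes were lower and 0 higher, while 8.98% of all probes were lower and 1.86% higher. Controls 1 to 3 and silenced culture 1 lay in the upper row. The same 7 probes were lower within each row, by -1.55 to -0.47 in the upper and by -2.23 to -0.84 in the lower row. That direction was fixed, since the groups did not overlap in these probes, and in each row 1 group had 1 array, so these values do not test the row.

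**Figure D1:**
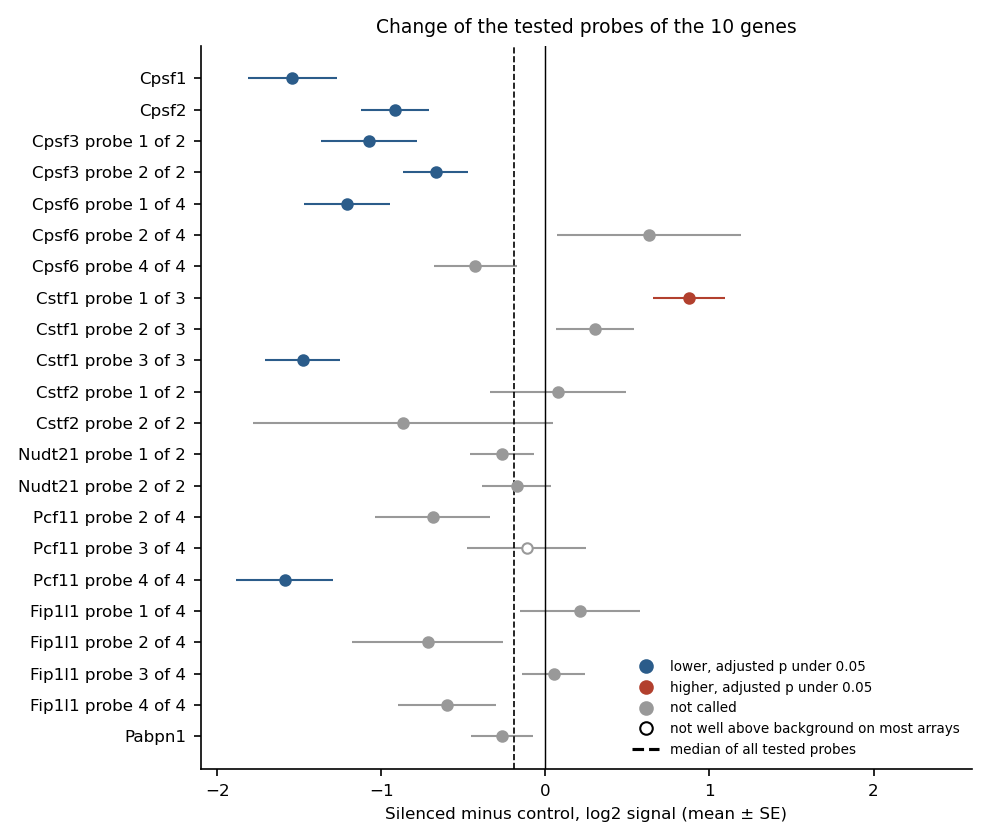
Change of 22 of the 23 tested probes of the 10 genes (all but the first Pcf11 probe, which was near background on every array), silenced minus control, in log2 signal (points, with bars of 1 SE, n = 4 arrays a group except where a spot was not measured), with probes of a gene numbered from 5′ to 3′. The largest falls, -1.59 for the last Pcf11 probe and -1.54 for Cpsf1, lie far to the left of the dashed median of all probes at -0.19, and the first Cstf1 probe lies at 0.88.

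CPSF was lower in its scaffold and in both subunits of its nuclease pair. Cpsf1, the large scaffold subunit, had a log2 signal of 12.05, 12.17, 12.72 and 12.30 in control replicates 1 to 4 and of 10.84, 11.40, 10.39 and 10.44 in silenced replicates 1 to 4. Every silenced value lay below every control value. The change was -1.54 (SE 0.27, limma adjusted p 0.00434), or 34.4% of the control signal, and it passed the test under all 19 other settings that were tried.

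Cpsf3 encodes the endonuclease that cuts the transcript. Its first probe read 10.77, 10.79, 10.06 and 11.05 in control replicates 1 to 4 and 9.84, 10.05, 9.41 and 9.06 in silenced replicates 1 to 4. The groups were separated only narrowly, since the highest silenced culture lay just below control replicate 3. The change was -1.08 (SE 0.29, limma adjusted p 0.0261). The second probe, 7748 bases of genome nearer the 3′ end, read 12.52, 12.69, 12.40 and 12.70 in controls and 12.07, 12.15, 11.64 and 11.78 in silenced cultures, without overlap. Its change was smaller, -0.67 (SE 0.20, limma adjusted p 0.0374). The call of the first probe was lost with the slide row as a block (adjusted p 0.0818) and without any one of controls 1, 2 and 4 or silenced culture 3 (0.0641 to 0.0869), and in 3 other settings. That of the second was lost with the slide row as a block (0.144), under the 75th percentile shift (-0.24, adjusted p 0.233) and without any one of controls 1, 2 and 4 or silenced cultures 1 and 3 (0.0710 to 0.125), and in 3 other settings.

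Cpsf2 encodes the inactive partner of that nuclease. It read 12.80, 13.04, 13.37 and 13.02 in control replicates 1 to 4 and 12.24, 12.10, 12.34 and 11.88 in silenced replicates 1 to 4. All 4 silenced cultures were below all 4 controls, with a change of -0.92 (SE 0.21, limma adjusted p 0.0119) that left 53.0% of the control signal. The call was lost under the 75th percentile shift (-0.45, adjusted p 0.100) and with the slide row as a block (-0.87, adjusted p 0.0719).

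Fip1l1 ties CPSF to poly(A) polymerase and binds U-rich RNA. Its brightest probe read 12.19, 12.24, 12.49 and 12.42 in control replicates 1 to 4 and 12.39, 12.34, 12.65 and 12.16 in silenced replicates 1 to 4. The groups overlapped throughout, and the change was 0.05 (SE 0.19, limma adjusted p 0.879), although it passed as higher under the 75th percentile shift (0.51, adjusted p 0.0467). Its other 3 probes changed by 0.21, -0.72 and -0.60 from 5′ to 3′, none past the test, with adjusted p from 0.180 to 0.722. Without control replicate 3, whose value in the last of them was 8.70 against 9.54 to 9.82 in the other controls, that last probe fell (-0.85, adjusted p 0.0364) and the second was at -1.12 (adjusted p 0.0577).

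**Figure D2:**
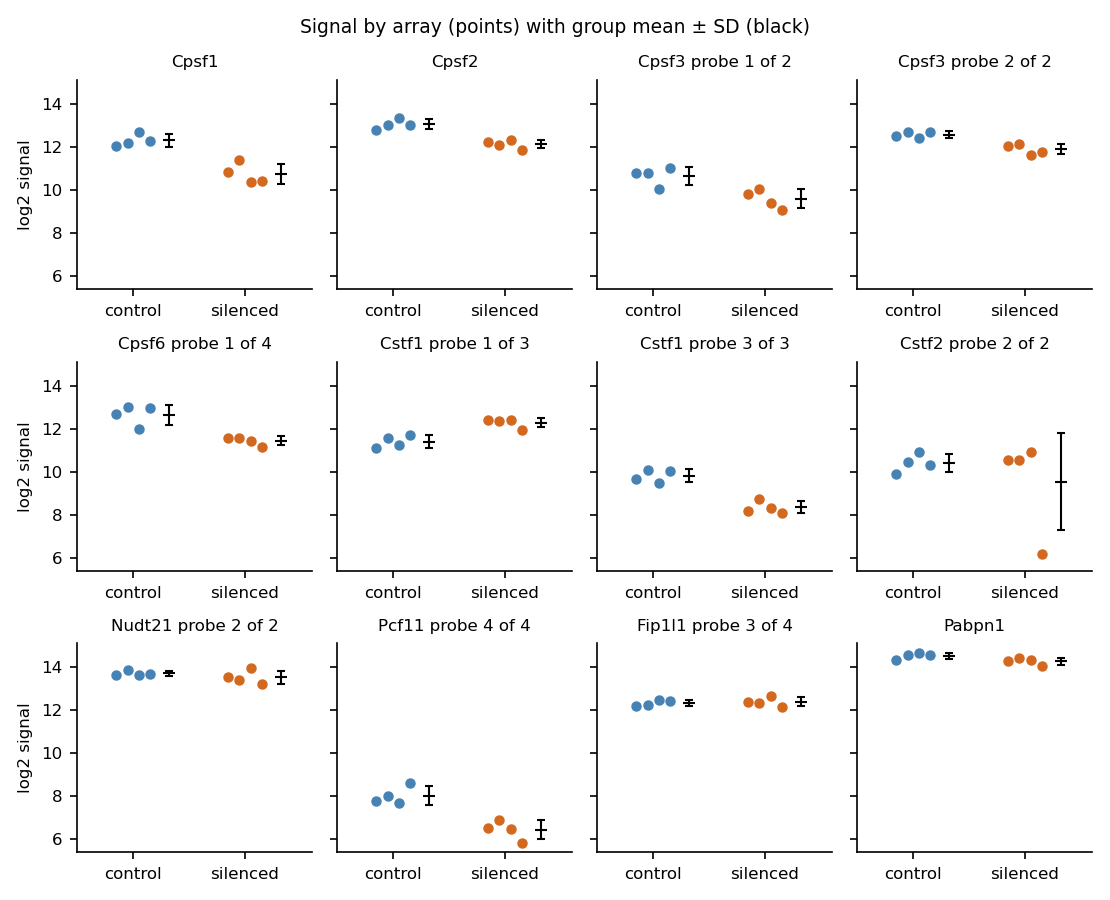
Log2 signal on each of the 8 arrays for 12 probes: every called member probe that was well above background in some array, and the brightest probe of each gene with none. Points are arrays (control in blue, silenced in orange) and black marks are the group mean ± SD; the silenced points of Cpsf1, Cpsf2, Cpsf3, Cpsf6 and Pcf11 lie below all control points, and in Cstf2 silenced culture 4 lies alone at 6.16.

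In CstF the 3 probes of Cstf1 gave 3 different answers. Cstf1 encodes the WD40 repeat subunit of CstF. The first probe (chromosome 2, 172206480 to 172206539) read 11.09, 11.58, 11.22 and 11.69 in control replicates 1 to 4 and 12.39, 12.37, 12.39 and 11.94 in silenced replicates 1 to 4. It was higher in all 4 silenced cultures, by 0.88 (SE 0.22, limma adjusted p 0.0185), which is 183% of the control signal. The last probe (172207753 to 172207812) read 9.68, 10.07, 9.48 and 10.04 in controls and 8.19, 8.74, 8.32 and 8.10 in silenced cultures. It was lower in all 4, by -1.48 (SE 0.23, limma adjusted p 0.00243), or 35.9% of the control signal, and the fall passed the test under all 19 other settings. The middle probe (172206524 to 172206583), which shares 16 bases with the first, read 12.21, 12.23, 12.42 and 12.44 in controls and 12.73, 12.84, 12.92 and 12.02 in silenced cultures. Silenced cultures 1 to 3 exceeded every control and culture 4 lay below them all, so the groups overlapped and the change of 0.30 (SE 0.24, limma adjusted p 0.393) did not pass. Without silenced culture 4 it did (0.51, adjusted p 0.0412), as it did under the 75th percentile shift (0.76, adjusted p 0.0112), under cyclic loess (0.47, adjusted p 0.0312), in the authors' table (0.46, adjusted p 0.0244) and with no mask on dim spots (0.47, adjusted p 0.0136). The rise of the first probe was lost without control 1 (0.77, adjusted p 0.0551), without silenced culture 1 (0.84, adjusted p 0.0582) and with the slide row as a block (0.82, adjusted p 0.0972), among 4 of 19 other settings that lost it.

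The comparison within a gene sets the last probe against the first on the same array, so that a shift shared by all probes of that array drops out. For Cstf1 the last probe minus the first was -1.42, -1.51, -1.74 and -1.65 in control replicates 1 to 4 and -4.20, -3.63, -4.07 and -3.84 in silenced replicates 1 to 4. The silenced values lay apart from the controls, and the difference moved by -2.35 (SE 0.18, limma adjusted p 0.000147 over 4477 genes with such a pair of probes, exact two-sided permutation p 0.0286, the smallest possible with 4 against 4). Counted from the largest downward move, it ranked 22 of the 4477 genes. The move was -2.64 among the arrays of the upper row of the slide and -2.19 among those of the lower row. In each row 1 group had 1 array, and the lack of overlap fixed the direction. The move passed under all 19 other settings, from -2.49 to -2.08. Measured from the middle probe, the difference moved from -2.51 ± 0.32 (SD, n = 4) to -4.29 ± 0.33 (SD, n = 4), again without overlap (exact permutation p 0.0286).

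The direction in Cstf1 was the less common one on these arrays. Over all 4477 genes, 36.3% had a difference that moved up in silenced cells, towards the 3′-most probe, and 7.84% one that moved down, and the median move was 0.44. The AATAAA shown above ends 1185 bases before the last Cstf1 probe begins and starts 22 bases behind the first probe. Among the members' 24 probes, 2 held AATAAA or ATTAAA as sense letters, the Cstf1 middle probe and the second Pcf11 probe (ATTAAA), while 9.77% of all 56605 probes held AATAAA, 3.86% ATTAAA and 13.4% either. The letters alone do not show that the site is used.

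**Figure D3:**
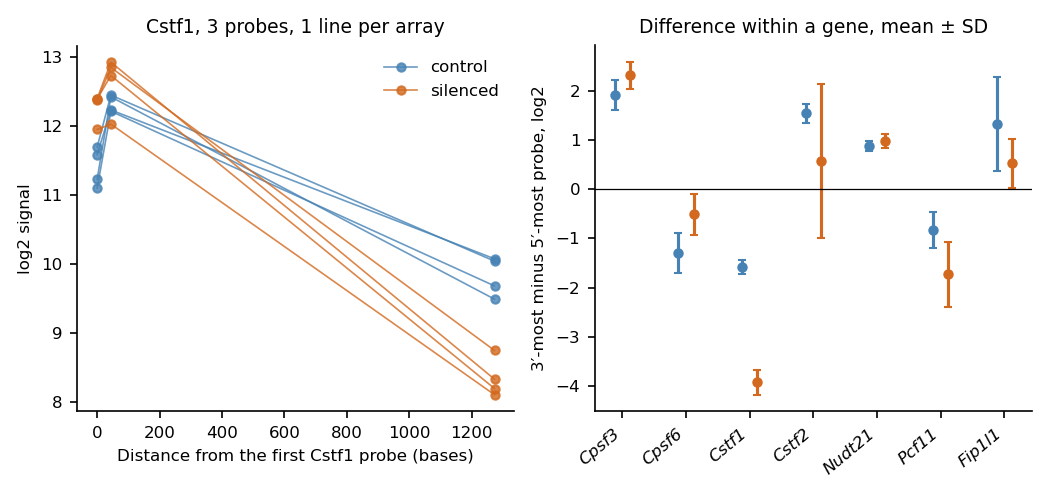
Left, log2 signal of the 3 Cstf1 probes against their distance from the first probe in bases, with 1 line per array; the lines of silenced arrays start above and end below those of the controls. Right, 3′-most minus 5′-most probe in log2 for the 7 members with such a pair (mean ± SD, control in blue, silenced in orange, n = 4 except 3 controls for Cstf2); Cstf1 moves from -1.58 to -3.93.

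Of the other 6 members with such a pair, only Cpsf6 passed the test, which sets a move against 0 and not against the median move of 0.44. Its difference moved up from -1.29 ± 0.41 (SD, n = 4) to -0.51 ± 0.42 (SD, n = 4), by 0.78 (SE 0.27, limma adjusted p 0.0428), and the call was lost in 8 of 19 other settings, among them the slide row (adjusted p 0.115) and leaving out any culture but control 3 or silenced 4 (0.0501 to 0.117). Pcf11 moved down by -0.90 (SE 0.34, limma adjusted p 0.0548), which passed without control 3 (-1.02, adjusted p 0.0347), without silenced culture 2 (-1.11, adjusted p 0.0305) and with only spots well above background (-1.02, adjusted p 0.0485). It was smaller without silenced culture 3 (-0.60, adjusted p 0.0983) and under normexp (-0.42, adjusted p 0.246). Fip1l1 moved by -0.81 (adjusted p 0.179, and -1.29 with adjusted p 0.00376 without control 3), Cpsf3 by 0.41 (adjusted p 0.147, and 0.55 with adjusted p 0.0335 without control 3) and Nudt21 by 0.09 (adjusted p 0.646) in limma. Counted as for Cstf1, from the largest downward move, Cpsf6 ranked 3049, Cpsf3 2146 and Nudt21 1372 of the 4477 genes. Fip1l1 ranked 330, Pcf11 282 and Cstf2 249, none of them called. Cstf2 moved by -0.97 (limma adjusted p 0.320), a value that rests on silenced array 4 (-0.20 without it), as described next.

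Cstf2 encodes the subunit that binds the GU-rich element. Its brightest probe (chromosome X, 130618819 to 130618878) read 9.90, 10.45, 10.93 and 10.30 in control replicates 1 to 4 and 10.55, 10.52, 10.90 and 6.16 in silenced replicates 1 to 4. Apart from silenced culture 4 the groups coincided. The change was -0.87 (SE 0.91, limma adjusted p 0.540) with that array and 0.26 (adjusted p 0.477) without it. The spot lies at row 193 of 384 and column 79 of 164 on the array. The 138 measured spots within 10 rows and columns of it differed from the other silenced arrays by a median of -2.61 log2 units on silenced array 4, where the median over all probes was -0.69. The first Cstf2 probe changed by 0.08 (SE 0.41, limma adjusted p 0.919), with control 4 left out because its spot was marked as an outlier by the scanner software.

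Cleavage factor I pairs Nudt21, which binds UGUA in the RNA, with Cpsf6. The brightest Nudt21 probe read 13.61, 13.88, 13.61 and 13.70 in control replicates 1 to 4 and 13.55, 13.40, 13.94 and 13.21 in silenced replicates 1 to 4. The ranges overlapped, with a change of -0.17 (SE 0.21, limma adjusted p 0.599), and its other probe changed by -0.27 (SE 0.19, limma adjusted p 0.359). Both changes were above 0 under the 75th percentile shift, at 0.40 and 0.21.

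For Cpsf6 the answer depended on the probe. The first probe read 12.67, 12.99, 11.97 and 12.94 in control replicates 1 to 4 and 11.58, 11.58, 11.43 and 11.15 in silenced replicates 1 to 4. Silenced cultures were all lower, by -1.21 (SE 0.26, limma adjusted p 0.0100), at 43.2% of the control signal, a call lost only in the methods' t-test (adjusted p 0.0609) among 19 other settings. The probe nearest the 3′ end, 14120 bases on, read 11.41, 11.26, 11.22 and 11.51 in controls and 10.92, 10.82, 11.54 and 10.41 in silenced cultures, where culture 3 was as high as any control. Its change was -0.43 (SE 0.25, limma adjusted p 0.255), and -0.26 without silenced culture 4 or -0.05 under the 75th percentile shift. Of the pair between them, one changed by 0.63 (SE 0.56, limma adjusted p 0.456) with control 3 at 4.67 against 7.02 to 7.35 in the other controls, and the other lay near background throughout and was not tested.

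Pcf11 belongs to cleavage factor II and binds the tail of RNA polymerase II, linking cleavage to termination. Its last probe, nearest the 3′ end, read 7.76, 8.02, 7.68 and 8.63 in control replicates 1 to 4 and 6.53, 6.91, 6.48 and 5.83 in silenced replicates 1 to 4. It was lower in every silenced culture, by -1.59 (SE 0.30, limma adjusted p 0.00536), the largest fall among the members in this fit. The fall passed under all 19 other settings, but was -0.90 under normexp and -1.23 under cyclic loess, where Cpsf1 fell further (-1.51 and -1.40). The last Pcf11 probe was well above background on all 4 control arrays and on 3 of the 4 silenced arrays. The second probe changed by -0.69 (SE 0.35, limma adjusted p 0.190), passed as lower without silenced culture 3 (adjusted p 0.0394) and was at -0.37 (adjusted p 0.315) without silenced culture 4. The third changed by -0.11 (SE 0.36, limma adjusted p 0.857) and was well above background on 1 array of each group. The first passed the test (limma adjusted p 0.0277) but all 8 arrays had it near background, so no size is given for it. That call was lost in 8 of the 17 other settings that gave a value, among them normexp (adjusted p 0.268), the slide row as a block (0.0506), the methods' t-test (0.0742) and leaving out any one of controls 2 and 4 or silenced cultures 1 and 3 (0.0722 to 0.0940).

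Pabpn1 coats the growing tail and sets its length. Its single probe read 14.33, 14.56, 14.67 and 14.55 in control replicates 1 to 4 and 14.29, 14.42, 14.33 and 14.02 in silenced replicates 1 to 4. The lowest control lay within the silenced range, and the change was -0.27 (SE 0.19, limma adjusted p 0.343).

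Other genes of 3′-end formation were set beside these, each by its brightest tested probe. On that footing 4 of the 10 factors fell and 0 rose, with a median change of -0.68, where 14.0% of 19360 genes fell, 5.99% rose and the median was -0.09. The 4 were Cpsf1, Cpsf2, Cpsf3 and Cpsf6. Under the 75th percentile shift the count was 2 lower (Cpsf1 and Cpsf6) and 2 higher (Cstf1 and Fip1l1), against 2064 and 5773 of 19360 genes, and the medians were -0.32 for the 10 factors and 0.29 for all genes. With the slide row as a block Cpsf1 and Cpsf6 were lower and 0 were higher, against 5.97% and 2.41% of all genes. Without silenced culture 4 the same 4 genes fell and Cstf1 rose, against 13.6% and 14.9% of all genes, and the medians were -0.28 and 0.07. The middle probe of Cstf1 is its brightest. With the mean of all tested probes of a gene in place of the brightest, Cpsf1, Cpsf2, Cpsf3 and Pcf11 fell, Cpsf6 was not called and 0 rose. On that footing 14.3% of all genes fell and 4.24% rose, and the medians were -0.45 for the 10 factors and -0.17 for all genes.

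Of the 12 remaining genes of the core machinery 2 fell and 0 rose, with a median of -0.37. The genes called numbered 5 under the 75th percentile shift, 1 with the slide row as a block, 1 in the methods' t-test and 0 with the mean of a gene's probes. Wdr33, the CPSF subunit that binds the AAUAAA signal, read 12.31, 12.68, 12.10 and 12.57 in control replicates 1 to 4 and 10.51 to 11.04 in the silenced replicates. It was lower in every silenced culture, by -1.63 (SE 0.22, limma adjusted p 0.00121), while none of its other 4 tested probes passed, and the pair of them that was well above background on all 8 arrays changed by -0.16 and 0.00. Rbbp6, a ubiquitin ligase that activates the CPSF nuclease, read 9.95, 10.63, 10.07 and 10.41 in controls and 9.21, 8.97, 9.56 and 8.45 in silenced cultures, without overlap, and changed by -1.22 (SE 0.28, limma adjusted p 0.0123). Another of its probes fell too (limma adjusted p 0.00285) and had no silenced array well above background, which bounds it at 2.54-fold lower or more, while its other 2 tested probes did not pass. Ppp1ca, a phosphatase subunit that works with CPSF, was not called by its brightest probe (0.15, limma adjusted p 0.581), but its second probe, well above background on all 8 arrays, fell by -0.87 (SE 0.21, limma adjusted p 0.0162) without overlap. The poly(A) polymerases did not pass, with Papola at 0.19 and Papolg at -0.44.

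Of 8 genes of the poly(A) tail and of termination 3 fell and 0 rose, with a median of -0.36, against 14.0% and 5.99% of all genes. Scaf4, which prevents premature polyadenylation, read 11.08, 11.56, 11.84 and 11.49 in control replicates 1 to 4 and 10.41, 10.57, 10.37 and 10.25 in silenced replicates 1 to 4, a fall of -1.09 (SE 0.21, limma adjusted p 0.00673) without overlap. Zc3h14, a poly(A) binding protein that restrains tail length, changed by -0.84 (SE 0.20, limma adjusted p 0.0170). Xrn2, the exonuclease that degrades the RNA behind the cut, changed by -0.77 (SE 0.20, limma adjusted p 0.0213) in its brightest probe, and in these probes of all 3 genes the silenced cultures lay below the controls. Of the other Xrn2 probes, one fell by -1.55 (limma adjusted p 0.00298) and one, also well above background on all 8 arrays, overlapped between the groups at -0.11 (limma adjusted p 0.831). Without control 2 or without control 4 the group held 1 call in place of 3. Of all genes 7.64% were then lower and 2.91% higher without control 2, and 7.41% and 3.06% without control 4.

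The 3′ ends of replication-dependent histone messages are cut by a related complex and carry no tail. Of 6 genes of that process 1 fell and 1 rose, with a median of -0.12, against 14.0% and 5.99% of all genes. Slbp, the stem-loop binding protein, read 11.64, 11.89, 11.10 and 12.09 in control replicates 1 to 4 and 10.67, 10.71, 10.41 and 10.23 in silenced replicates 1 to 4. It was lower in every silenced culture, by -1.18 (SE 0.25, limma adjusted p 0.00978), and a second probe well above background on all 8 arrays fell by -1.35 (SE 0.32, limma adjusted p 0.0144), also without overlap. A dimmer probe fell (limma adjusted p 0.00686) with no silenced array well above background, at least 1.18-fold, and the last of its 4 tested probes changed by -0.43 (limma adjusted p 0.629) with overlap and with no value for silenced culture 1. Zfp473, a zinc finger protein of the histone complex, read 5.17, 5.38, 5.75 and 5.38 in controls and 8.35, 6.80, 7.52 and 5.57 in silenced cultures, of which culture 4 lay within the control range, and it rose (limma adjusted p 0.0406). No control array and 3 silenced arrays had it well above background, so only a bound can be given, a rise of at least 2.01-fold, where the silenced mean is set against the dimmest signal well above background on each control array, or the probe's own signal if that is higher. The 2 calls became 1 without any one culture of controls 1, 2 and 4 or silenced 1, 2 and 3. Of all genes 7.41% to 12.5% were then lower and 2.91% to 3.77% higher.

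**Figure D4:**
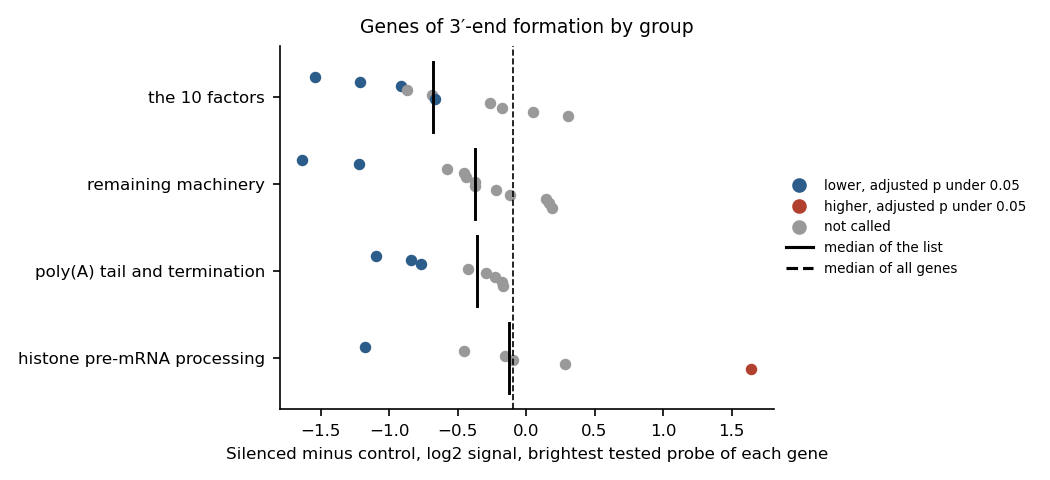
Change of the brightest tested probe of each gene, silenced minus control in log2 signal, for the 10 factors and 3 further groups of 3′-end formation; each point is a gene, solid lines are group medians and the dashed line is the median of 19360 genes. The medians run from -0.68 for the 10 factors to -0.12 for histone pre-mRNA processing, against -0.09 for all genes, and that of the 10 factors was -0.28 without silenced culture 4; Zfp473, drawn at its fitted change, lies alone on the right.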

How the data were processed

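Total RNA of 8 cultures was labelled with Cy3 by a kit that, as general background, primes from the poly(A) tail, so probes far from the tail can lose signal, and was hybridised to 8 one-colour Agilent arrays on 1 slide, read in 1 scan. The authors deposited spot intensity on a linear scale, background-subtracted and detrended by Feature Extraction (12.0.0.7 per the file headers, 10.7.3.1 per the submitters' processing notes), not normalized between arrays, with flags of 0 or 1 for dim and outlying spots (unit other). The authors also deposited a table of normalized intensity values, used as an alternative.

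From the deposited intensity, spots not positive and significant were masked, control and outlier spots removed, log2 values quantile normalized and spots of a probe averaged. Masking, normalization and averaging follow the methods. The 28649 probes with at most 1 missing value in each group were fitted on group alone by limma 3.58.1 under R 4.3.3 (lmFit, then eBayes), and p-values were adjusted by Benjamini-Hochberg over all of them at 0.05. For single values a two-sided exact permutation test was used, which cannot give a p under 0.0286 with 4 against 4 arrays. The difference between the 3′-most and the 5′-most probe of a gene (both well above background on at least 3 arrays of each group, at least 60 bases apart) was fitted in the same way over 4477 genes, a comparison added after the data were seen. The fit was tested on simulated data.

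The members, gene lists and tests were chosen with earlier results of these data known. Every member probe is reported, with values by array for each called probe well above background on some array or, in a gene with none, for its brightest probe; of the 3 further lists each gene whose brightest tested probe was called is named, and Papola, Papolg and Ppp1ca were named besides after their values were seen. Probe names, sequences and positions (build mm9) are those of the files; of the 24 member probes, 21 carry a RefSeq accession and all 21 matched the same symbol in RefSeq's gene table (assembly GRCm38.p6, names only). Whether a probe lies in a coding or untranslated exon was not analysed here. Alternatives of processing were the 75th percentile shift, normexp (offset of 50), cyclic loess, no mask, the authors' table, only spots well above background and complete probes only. Alternatives of the fit were the replicate number or the slide row as a block, a robust trended prior, the methods' t-test, the mean of a gene's probes and leaving out each array. The methods name a t-test for other comparisons, on arrays with permutation p-values and a Bonferroni correction. A figure of the paper's supplement names a two-tailed t-test with unequal variances for the present comparison. Here the t-test was run with unequal variances and Benjamini-Hochberg adjusted unless stated. The small number of arrays limits precision. Figures were drawn with matplotlib 3.10.9.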

Additional observations from a re-analysis of the deposited data

Results flagged for a closer look

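In 6 of the 59 groups of 4 values examined, 1 array stood apart from the other 3 of its group, by Dixon's criterion at the 95% level, which chance alone passes in about 1 of 20 groups. Silenced culture 4 was low in the second Cstf2 probe (6.16 against 10.52 to 10.90) and therefore in the Cstf2 difference between probes (-1.75 against 1.15 to 1.55), and it was also low in the first Cstf1 probe (11.94 against 12.37 to 12.39). Control 3 was low in the second Cpsf6 probe (4.67 against 7.02 to 7.35) and in the Fip1l1 difference between probes (-0.088 against 1.76 to 1.93). Silenced culture 3 was high in the Cpsf6 difference (0.11 against -0.76 to -0.65).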

How the results depend on the processing

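The fall of Pvt1 passed the test in each of the 18 alternatives that gave a value (-3.14 to -2.19), and so did the Cstf1 difference between probes under all 19. The members' probes called lower numbered 8, with 4 under the slide row as a block, 5 under the methods' t-test and 5 to 9 when 1 array was left out. Those called higher numbered 1, with 3 under the 75th percentile shift, 2 under cyclic loess, 3 in the authors' table, 3 with no mask, 0 under the slide row and 0 to 2 when 1 array was left out. All probes called lower numbered 5269 (18.4% of those tested), with 2572 (8.98%) under the slide row, 2854 (9.96%) under the t-test and 2984 to 5732 (10.3% to 19.8%) when 1 array was left out. Those called higher numbered 1373 (4.79%). They numbered 7075 (24.7%) under the 75th percentile shift, 5416 (18.9%) under cyclic loess, 4509 (9.86%) in the authors' table and 4990 (8.82%) with no mask. The probes tested were 28649 under the shift and cyclic loess, 45741 in the authors' table and 56600 with no mask. Under the slide row 534 (1.86%) were higher and under the t-test 566 (1.98%). With 1 array left out 683 to 3563 (2.36% to 12%) were higher, the most without silenced culture 4. The remaining machinery had 2 calls, with 5 under the 75th percentile shift, 1 under the slide row, 1 under the t-test and 0 with the mean of a gene's probes. The tail and termination group had 3, with 1 under the 75th percentile shift, 1 under the slide row and 1 to 4 when 1 array was left out. The histone group had 2, with 1 under normexp, 1 with only spots well above background, 0 under the t-test and 1 to 2 when 1 array was left out. At a Bonferroni adjusted p of 0.05 the methods' t-test called 6 probes in all and 0 of the members, of which 9 of 23 had an unadjusted p under 0.05, as did 31.5% of all probes. The cause of these moves was not tested, apart from the arrays left out and the term added.

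Among the members, no called probe changed direction. Uncalled probes did: the second Cpsf6 probe (-0.14 with only spots well above background), the first Cstf2 probe (-0.46 in the authors' table and -0.0023 with only spots well above background), the second Cstf2 probe (0.19 with only spots well above background), both Nudt21 probes (0.21 and 0.40 under the 75th percentile shift, the second also 0.050 under cyclic loess), the third Pcf11 probe (0.22 under the 75th percentile shift, 0.17 under cyclic loess, 0.0016 under normexp, 0.24 in the authors' table, 0.22 with no mask) and Pabpn1 (0.32 under the 75th percentile shift). With 1 array left out, the second Cpsf6 probe ranged from -0.0077 to 0.89, the Cstf2 probes from -0.19 to 0.42 and from -1.32 to 0.26, the third Pcf11 probe from -0.42 to 0.22, the first Fip1l1 probe from -0.0049 to 0.51 and the third from -0.036 to 0.13.

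Cultures of the same number share no stated origin, and their deviations correlated at -0.04, 0.19, 0.22 and 0.06, with own number best for replicates 2 and 3 only. With the replicate block, 6 members' probes were called lower and 0 higher, against 13.9% and 3.57% of all probes. The block left the tail and termination group 1 call, against 9.93% of all genes lower and 4.46% higher. It also lost the first Cstf1 probe (adjusted p 0.0606), the second Cpsf3 probe (0.0954) and the first Pcf11 probe (0.0618), and it gained the Pcf11 and Fip1l1 differences between probes (0.0199 and 0.0347).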
